A study of Mus musculus with 8 samples.

Results

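Ion channel genes were examined in mouse blastocysts, the stage at which the embryo forms an outer epithelium around a fluid-filled cavity. The set was defined by gene symbol: potassium channels (Kcn), CLC chloride channels and exchangers (Clcn), chloride intracellular channel proteins (Clic), voltage-gated calcium (Cacna, Cacnb, Cacng) and sodium (Scn) channels, the Trpc, Trpm and Trpv cation channels, and Piezo1 and Piezo2. The deposited table held 173 such genes among 22013. It included 2 genes that carry a channel's name but encode no channel subunit, Trpc4ap and Trpc5os.

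The agomir group was 4 libraries of embryos grown for about 75 h after fertilisation, to the blastocyst stage, in the embryo medium KSOM, to which an agomir of miR-21-5p, a chemically modified microRNA mimic, was added at 50 nM. The blank control group was 4 libraries of embryos given vehicle with no oligonucleotide, so no unrelated oligonucleotide was part of the comparison. The labels call the controls blastocysts too, and no culture time was recorded for them here. All embryos were wild-type ICR, from in vitro fertilisation of eggs of superovulated females aged 6 to 8 weeks with sperm of males aged 8 to 10 weeks, and each library was a pool of 5 blastocysts. The labels place all 8 libraries in 1 batch and do not say whether pools came from separate fertilisation sessions, so the p-values rest on pool-to-pool spread, which may be technical.

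Total counts lay between 18799156 and 23147449 in agomir libraries, and between 12246102 and 21271696 in controls. All 8 trophectoderm, all 7 inner cell mass and all 6 primitive endoderm markers had counts in all 8 libraries, as did some oocyte and sperm markers. Summed trophectoderm markers were at 2203 to 7175 CPM (counts scaled to library size) with the agomir, highest in agomir 3, and at 1863 to 3559 CPM in controls, most of it from Krt8 and Krt18. Inner cell mass markers summed to 195 to 335 CPM with the agomir and 233 to 368 CPM in controls. Oocyte markers summed to 6.34 to 8.60 CPM with the agomir and 3.16 to 7.68 CPM in controls. Sperm markers summed to 0.436 to 0.725 CPM with the agomir and 0.512 to 1.44 CPM in controls. At an unadjusted p under 0.05 in edgeR, 4 of the 8 trophectoderm markers (Gata3, Tfap2c, Elf5 and Eomes) were higher with the agomir. The trophectoderm markers Cdx2, Tead4, Krt8 and Krt18 did not reach that p. Of the 7 inner cell mass markers 1, Klf4, was lower. Over all tested genes 2.64% were higher and 3.74% lower at that p. None of these markers passed after adjustment, and their part in the channel gene values below was not tested. Markers of cumulus and granulosa cells, the ovarian cells that surround the egg, summed to 6.42 to 25.7 CPM with the agomir and 26.1 to 76.1 CPM in controls, so the groups did not overlap. Of those 12 markers Cyp19a1 had no count in any library, and most of the sum came from Cyp11a1 and Inha. Cyp11a1 was at 4.79 to 16.1 CPM with the agomir and 20.5 to 59.6 CPM in controls. Inha overlapped, at 0 to 11.3 CPM with the agomir and 2.78 to 12.1 CPM in controls. Of the 3 tested, Cyp11a1 alone had an unadjusted p under 0.05 in edgeR (0.000496), and it did not pass after adjustment. The sum thus rests largely on 1 gene.

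Ion channels let ions cross membranes along their gradients and so set membrane voltage, cell volume, organelle acidity and calcium signals. In the blastocyst, ion movement across the trophectoderm draws water into the cavity. Voltage-gated potassium channels assemble from pore subunits, among which the Kcnf, Kcng, Kcns and Kcnv proteins are electrically silent: they form no working channel alone and alter channels built from other pore subunits. Kcnv2 belongs to this silent group and is best known from the photoreceptors of the retina. A microRNA pairs through bases 2 to 8 of its 5' end, the seed, with sites in messenger RNA. The mature microRNA that the agomir mimics is shown so that its seed can be set beside the sites described further on (RefSeq, GRCm38.p6; 5' to 3', seed in capitals).
miR-21a-5p: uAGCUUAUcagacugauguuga

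Most channel genes were at or near the limit of detection. A gene was called expressed at 1 FPKM (fragments scaled to transcript length and library depth) or more in at least 4 of the 8 libraries. By this rule 25 of the 173 channel genes were expressed (14.5%), against 9845 of the 22013 genes of the table (44.7%). Another 30 channel genes had counts enough for testing but lower FPKM, 97 had fewer counts, and 21 had no count in any library (12.1%, against 16.5% of the table). The number of channel genes with a count was 92 to 106 per agomir library and 91 to 109 per control library. They took 0.0630% to 0.0861% of all counts with the agomir and 0.0761% to 0.0982% in controls, highest in control 2.

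**Figure D1:**
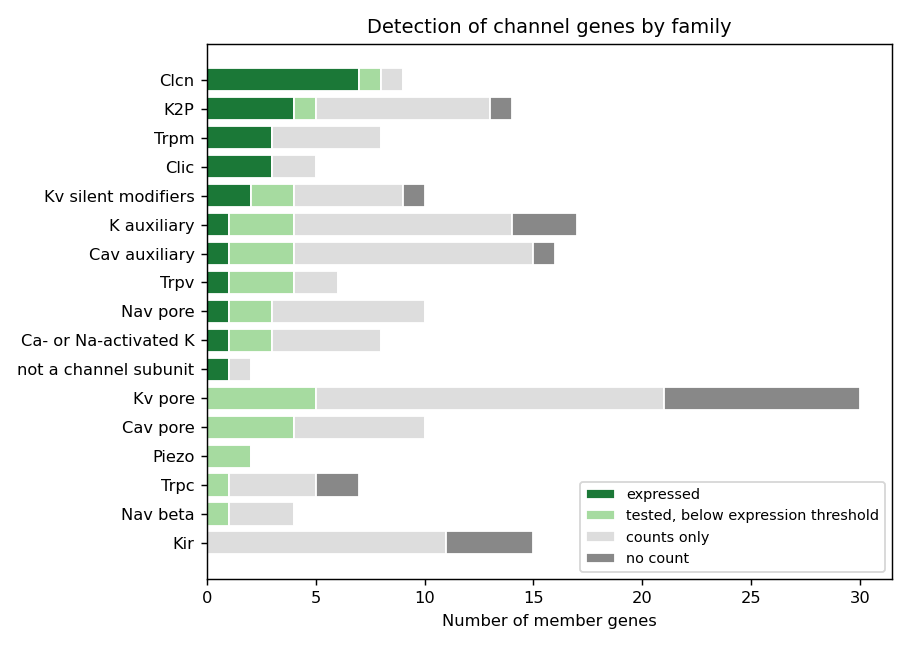
Number of channel genes in each family (bars, horizontal axis) by detection: expressed at 1 FPKM or more in at least 4 libraries, tested but below that level, with counts only, or with no count. The Clcn family had 7 of 9 genes expressed, whereas the Kir family had 0 of 15 tested.

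Families differed in how much of them was expressed. Of the Clcn family 7 of 9 genes were expressed, of the Clic family 3 of 5 and of the Trpm family 3 of 8. Among two-pore-domain potassium channels (Kcnk), which leak potassium at rest, 4 of 14 were expressed. Of the 30 pore subunits of voltage-gated potassium channels 0 were expressed, 5 were tested and 9 had no count. None of the 15 inward rectifiers (Kcnj) reached testing. Voltage-gated calcium and sodium channel genes were also sparse, with 0 of 10 calcium pore subunits and 1 of 10 sodium pore subunits expressed. Of the silent potassium channel subunits 2 of 10 were expressed, Kcns3 and Kcnv2. Kcnv2 met the rule through the controls alone, at 1.65 to 2.17 FPKM. In agomir libraries Kcnv2 was at 0.59 to 0.74 FPKM, below the threshold. Neither Piezo gene reached the threshold, and both were tested.

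A few genes carried most of the FPKM. The sum over all members was 220 to 286 FPKM in agomir libraries and 247 to 339 FPKM in controls. The 4 highest genes together made up 63.7% of the sum of mean FPKM, and the Clic family 54.4%. Clic4, whose protein moves between cytosol and membranes, was the highest, with 77.3, 78.5, 82.4 and 56.9 FPKM in agomir libraries 1 to 4 and 67.1, 96.3, 63.2 and 67.2 FPKM in controls 1 to 4. The groups overlapped, and agomir 4 was the lowest of all 8. Clic3 followed at 30.9 ± 7.81 FPKM with the agomir and 43.6 ± 12.6 FPKM in controls (SD, n = 4 each). Clic1 stood beside it at 37.0 ± 3.37 FPKM with the agomir and 33.8 ± 7.08 FPKM in controls, so the order of Clic3 and Clic1 was not separable from their spread.

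**Figure D2:**
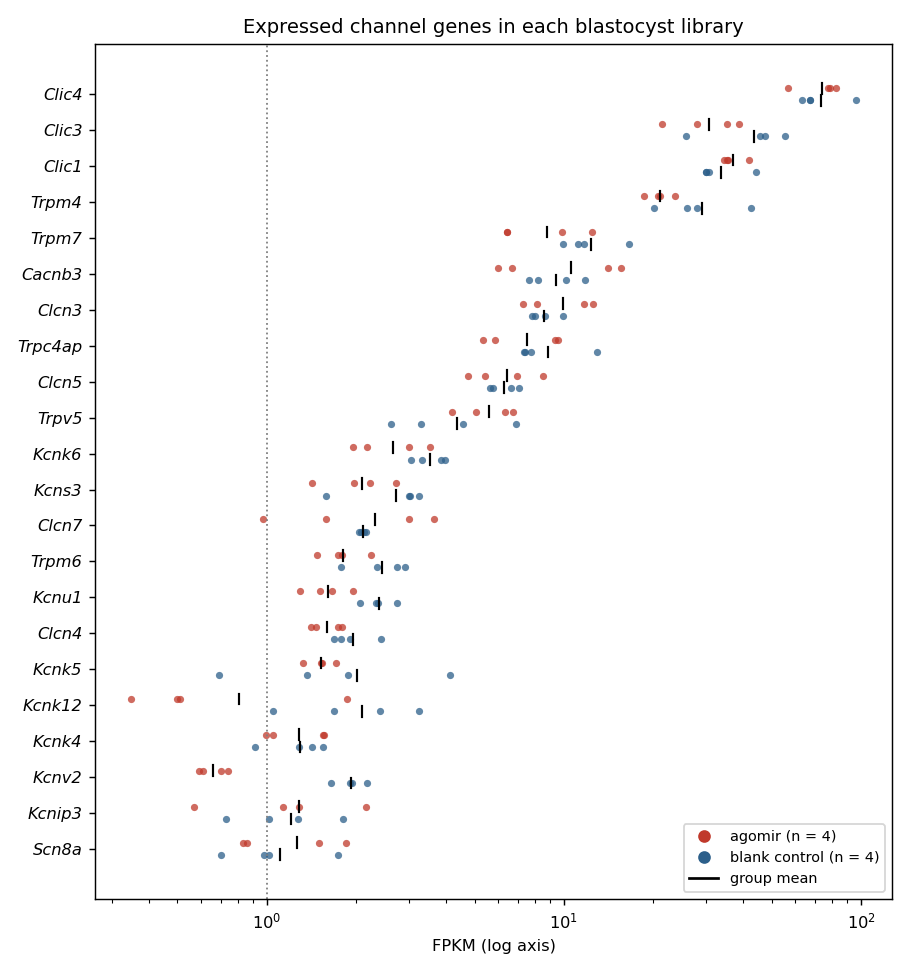
FPKM of the expressed channel genes named in the text (log axis) in each library, agomir above blank control for each gene; ticks are group means and the dotted line marks 1 FPKM. The 4 agomir points lie wholly apart from the 4 control points for Kcnv2 and for Kcnu1 on this scale. In CPM, the scale of the comparison, Kcnu1 overlaps, with agomir 3 at 6.06 CPM and control 1 at 5.20 CPM. The share of all genes lying apart in FPKM was not taken.

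Cation channels of the Trpm family came next. Trpm4, a calcium-activated channel that passes monovalent cations, had 18.6 to 23.7 FPKM with the agomir and 20.1 to 42.6 FPKM in controls. Its place by FPKM rests on a short assumed transcript. Its counts and FPKM together imply a length of 634 bases, 14.7% of its longest transcript in GENCODE release M21 (4315 bases). By counts alone it was at 13.6 ± 1.06 CPM with the agomir and 17.5 ± 4.31 CPM in controls. Trpm7, a channel fused to a kinase that passes magnesium and other divalent cations, had 8.79 ± 2.91 FPKM with the agomir and 12.3 ± 2.88 FPKM in controls, at 99.1% of its longest transcript. Trpm6, its close relative, had 1.81 ± 0.320 FPKM with the agomir and 2.44 ± 0.506 FPKM in controls. For the sodium channel gene Scn8a (13.9%) and for Kcnk4 (35.3%) the implied length was likewise short, so their places just above 1 FPKM depend on the isoform assigned. Kcnv2 stood at 100.1% of its longest transcript.

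Chloride transport genes formed the broadest expressed family. Clcn3 and Clcn5, which exchange chloride for protons in endosomes, had 9.92 ± 2.59 and 6.41 ± 1.68 FPKM with the agomir, against 8.57 ± 0.948 and 6.27 ± 0.694 FPKM in controls (SD, n = 4 each). Clcn7, the lysosomal exchanger, had 3.02, 3.66, 0.970 and 1.58 FPKM in agomir libraries 1 to 4, and 2.05 to 2.16 FPKM in controls. The agomir libraries thus fell on both sides of the controls.

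Calcium entry and regulatory genes were fewer. Trpv5, an epithelial calcium channel, had 5.58 ± 1.17 FPKM with the agomir and 4.35 ± 1.88 FPKM in controls (SD, n = 4 each), and its relative Trpv6 had 0.782 ± 0.190 FPKM with the agomir and 0.815 ± 0.440 FPKM in controls. Cacnb3, an auxiliary subunit of voltage-gated calcium channels, had 14.1, 6.00, 15.5 and 6.69 FPKM in agomir libraries 1 to 4 and 7.64, 11.7, 10.1 and 8.17 FPKM in controls 1 to 4. Its agomir libraries formed a high and a low pair around the controls. The highest calcium pore gene, Cacna1b, was at 0.552 ± 0.343 FPKM with the agomir and 1.17 ± 0.885 FPKM in controls, with an implied length of 9.38% of its longest transcript. Piezo1, a pore opened by membrane stretch, had 0.460 ± 0.236 FPKM with the agomir and 0.332 ± 0.0866 FPKM in controls. Its exons share 2441 bases with Ctu2 on the other strand, and without a strand setting such reads cannot be told apart.

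Potassium channel transcripts were led by Kcnk6, a two-pore-domain channel, at 2.66 ± 0.738 FPKM with the agomir and 3.55 ± 0.434 FPKM in controls (SD, n = 4 each). Kcns3, a silent subunit, had 2.08 ± 0.542 FPKM with the agomir and 2.71 ± 0.763 FPKM in controls. Kcnu1, a potassium channel known from sperm, had 1.29 to 1.95 FPKM with the agomir and 2.06 to 2.75 FPKM in controls. The remaining potassium channel genes at over 1 FPKM in control libraries on average included Kcnk5, Kcnk12, Kcnv2 and Kcnip3, a calcium sensor that binds potassium channels and DNA. Kcnk1, another two-pore-domain channel, had 0.988 ± 0.777 FPKM with the agomir and 0.708 ± 0.446 FPKM in controls, a spread as wide as its level. Kcnn4, a potassium channel opened by calcium, had 0.273 ± 0.145 FPKM with the agomir and 0.413 ± 0.127 FPKM in controls. Kcnq1 and Kcnj8 were close to 0. Kcnq1 had 3 counts in agomir 4, against 3 counts in control 1 and 8 counts in control 3, and Kcnj8 had 1 count in agomir 1, with 0 in the other libraries for both genes. Among other genes looked up by name, the potassium channel partner Kcne3 had 1 to 15 counts in agomir libraries and 0 to 7 in controls, the calcium pore gene Cacna1h had 0 to 4 counts with the agomir and 0 to 17 in controls, and the cation channel gene Trpc1 had 0 to 4 counts with the agomir and 0 to 7 in controls.

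The comparison of the groups asked which channel genes differed after culture with the mimic. Groups were compared with edgeR's quasi-likelihood test on counts, over all 12366 genes with enough counts, of which 55 were channel genes. Differences are log2 fold changes of CPM, agomir over blank control, with their standard errors (SE). Of the 55 channel genes 0 passed at an adjusted p of 0.05, and percent called over all genes was 0 too. With DESeq2, the alternative count test, 84 channel genes had an adjusted p, and 2 of them passed, Kcnv2 and Kcnma1. Of all 14361 genes with an adjusted p in DESeq2, 35 passed (0.244%). Kcnma1 was not among the 55 tested in edgeR. At an unadjusted p under 0.05 there were 3 channel genes in edgeR, Kcnv2, Cacna2d1 and Kcnab3, or 5.45% of those tested, against 6.38% of all genes. All 3 were lower with the agomir, where 3.74% of all genes were lower and 2.64% higher at that p. The count for the set was therefore near that of the whole table. Among the tested channel genes the groups did not overlap in CPM for 2, Kcnv2 and Cacna2d1 (3.64%), against 3.89% of all tested genes. Both were lower with the agomir, where the groups lay apart downwards for 2.47% of all tested genes and upwards for 1.42%. Kcnk3, a two-pore-domain channel, had too few counts for testing and stands outside these shares. It had 2, 2, 0 and 0 counts in agomir libraries 1 to 4 and 5, 13, 15 and 4 counts in controls 1 to 4. Its groups did not overlap either, but the share of untested genes lying apart was not taken.

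Kcnv2, on chromosome 19, had the lowest p of the set and ranked 2 of 12366 by p in edgeR. It had 3.77, 2.80, 3.57 and 4.02 CPM in agomir libraries 1 to 4, from 75, 58, 59 and 83 counts. In controls 1 to 4 it had 7.99, 9.75, 9.68 and 10.2 CPM, from 103, 210, 208 and 205 counts. Each agomir library lay below each control, and the highest agomir library stood well under the lowest control. The means were 3.54 ± 0.524 CPM with the agomir and 9.40 ± 0.967 CPM in controls (SD, n = 4 each), a log2 fold change of -1.41 (SE 0.24, edgeR adjusted p = 0.299). DESeq2 gave -1.39 (SE 0.26) with an adjusted p of 0.000369, so whether the gene is called depends on the test. Over 8 fits that each left out a library, edgeR gave -1.48 to -1.31 with adjusted p between 0.249 and 0.660. In FPKM it was at 0.660 ± 0.0716 with the agomir and 1.92 ± 0.213 in controls. In pooled embryos, fewer cells that hold a transcript and less of it per cell cannot be told apart.

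**Figure D3:**
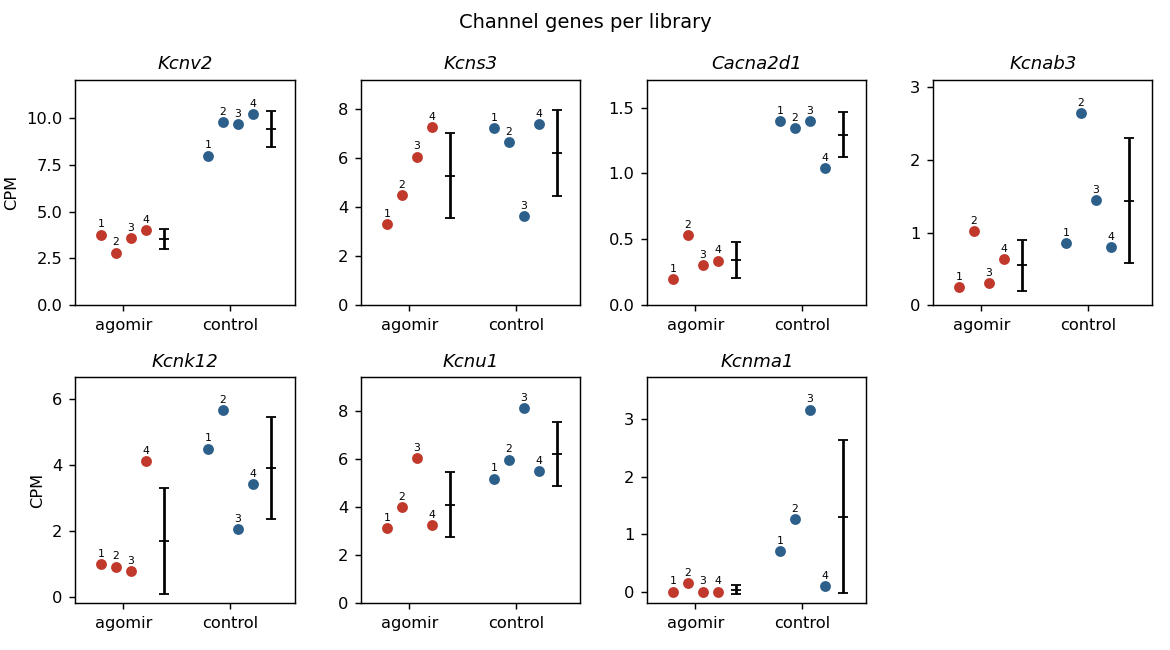
CPM of 7 channel genes in each library (numbered points), agomir left of control; bars give the mean and SD of 4 libraries. Kcnv2 and Cacna2d1 are the genes whose groups do not overlap; Kcnma1 is at 0 in 3 agomir libraries.

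Related potassium channel genes were examined beside it. Kcnb2, a voltage-gated pore gene, had 1 count in agomir 2 and 2 counts each in controls 2 and 4. The silent relative Kcns3 had 5.28 ± 1.73 CPM with the agomir and 6.22 ± 1.76 CPM in controls (SD, n = 4 each; log2 fold change -0.23, SE 0.32), and Kcnv1 had 1 count in all. Whether Kcnv2 differed more than these genes was not tested. Photoreceptor markers were at or near 0: their sum over 8 genes was 0.301 to 1.33 CPM with the agomir and 0.279 to 1.79 CPM in controls, and Rcvrn and Prph2 had no count.

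Cacna2d1, on chromosome 5, encodes an auxiliary calcium channel subunit that carries pores to the membrane and binds the drug gabapentin. It had 0.201, 0.531, 0.303 and 0.339 CPM in agomir libraries 1 to 4, from 4, 11, 5 and 7 counts. In controls 1 to 4 it had 1.40, 1.35, 1.40 and 1.04 CPM, from 18, 29, 30 and 21 counts. The groups did not overlap in CPM, at a depth of a few reads per library (log2 fold change -1.89, SE 0.49, edgeR adjusted p = 0.621). In FPKM they met, with agomir 2 and control 3 both at 0.37. The implied length of Cacna2d1 was 39.5% of its longest transcript. Kcnab3, an auxiliary subunit that binds potassium channels inside the cell, had 0.251, 1.01, 0.303 and 0.629 CPM in agomir libraries 1 to 4. Kcnab3 was at 0.853, 2.65, 1.44 and 0.794 CPM in controls 1 to 4. Agomir 2 lay above controls 1 and 4, and control 2 was highest (log2 fold change -1.37, SE 0.60, edgeR adjusted p = 0.762). Without control 2 the Kcnab3 value was -0.89, and without both control 2 and agomir 3 it was -0.70. An antisense transcript, Kcnab3os, shares 147 bases with its exons.

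Kcnma1, the large-conductance potassium channel opened by calcium and voltage, was left out of the edgeR test for its low counts. It had 0, 3, 0 and 0 counts in agomir libraries 1 to 4 and 9, 27, 68 and 2 counts in controls 1 to 4. The counts came mostly from controls 3 and 2, and control 4 lay below agomir 2 in CPM. The ratio of summed counts, agomir over control and scaled to library size, was 0.0277, with an exact 95% interval of 0.00562 to 0.0831 that covers counting error only. DESeq2 gave it an adjusted p of 0.0453, and edgeR with no filter on low counts one of 0.467. Its controls stood in the same order as the summed cumulus and granulosa cell markers. Those were at 76.1, 53.1, 37.4 and 26.1 CPM in controls 3, 2, 1 and 4. The agomir libraries did not follow that order. Agomir 1 had the highest marker sum of its group, 25.7 CPM, and 0 Kcnma1 counts, whereas agomir 2 held the 3 counts. A link between Kcnma1 and these markers was not tested.

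**Figure D4:**
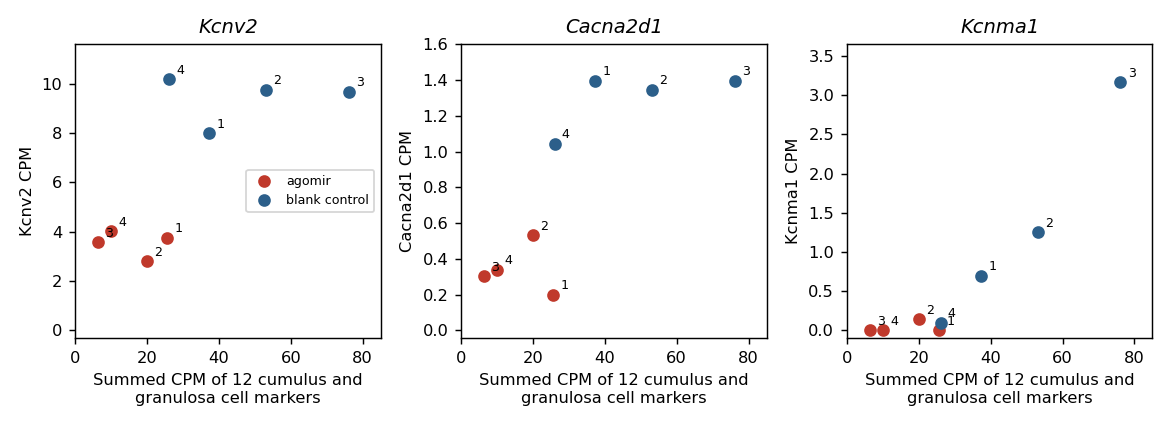
CPM of Kcnv2, Cacna2d1 and Kcnma1 against the summed CPM of 12 cumulus and granulosa cell markers in each library (numbered points). The markers sum to 6.42 to 25.7 CPM in agomir libraries and 26.1 to 76.1 CPM in controls, so the groups lie apart on the horizontal axis as well as for Kcnv2 and Cacna2d1.

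The sum of those markers also stood lower with the agomir, so it was set beside each result. The highest agomir library by summed markers, agomir 1, was at 25.7 CPM and the lowest control, control 4, at 26.1 CPM. In these 2 libraries Kcnv2 had 3.77 CPM in agomir 1 and 10.2 CPM in control 4, Cacna2d1 had 0.201 CPM in agomir 1 and 1.04 CPM in control 4, and Kcnma1 had 0 counts in agomir 1 and 2 counts in control 4. They were not level in each marker: Cyp11a1 was at 12.3 CPM in agomir 1 and 20.5 CPM in control 4, and Inha at 11.3 CPM in agomir 1 and 2.78 CPM in control 4. The part of these markers, or of cells that hold them, in the Kcnv2, Cacna2d1, Kcnab3 and Kcnma1 values was not tested.

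The other tested channel genes had larger errors or smaller differences. Over the 55 tested members 23 stood higher and 32 lower, with a median log2 fold change of -0.15, against 0.0048 over all genes. Control 2 and agomir 3 were the libraries of each group with the highest summed trophectoderm markers. Without both, a pair chosen after seeing the data, the median of the members was -0.0088, against -0.010 over all genes in that fit. Leaving out single libraries gave medians from -0.17 (control 3) to -0.038 (control 1), with -0.16 without control 2 and -0.062 without agomir 3. The cause was not tested. The median SE was 0.43 for channel genes and 0.27 for all genes, and the median level of the tested members was 1.95 CPM against 14.2 CPM. Kcnk12, a two-pore-domain subunit, had 1.00, 0.918, 0.787 and 4.11 CPM in agomir libraries 1 to 4 and 4.50, 5.67, 2.05 and 3.43 CPM in controls 1 to 4. Agomir 4 lay among the controls and the other 3 below them all (log2 fold change -1.18, SE 0.55, edgeR adjusted p = 0.783). Without agomir 4 the Kcnk12 value was -2.09, and without both control 2 and agomir 3 it was -0.71. Kcnu1 had 3.11, 4.01, 6.06 and 3.24 CPM in agomir libraries 1 to 4 and 5.20, 5.99, 8.14 and 5.51 CPM in controls 1 to 4 (log2 fold change -0.60, SE 0.30). Trpm7 had 62.4 ± 13.1 CPM with the agomir and 81.5 ± 14.3 CPM in controls (SD, n = 4 each; log2 fold change -0.39, SE 0.20). Without control 2 the Trpm7 value was -0.25, and without both control 2 and agomir 3 it was -0.18.

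**Figure D5:**
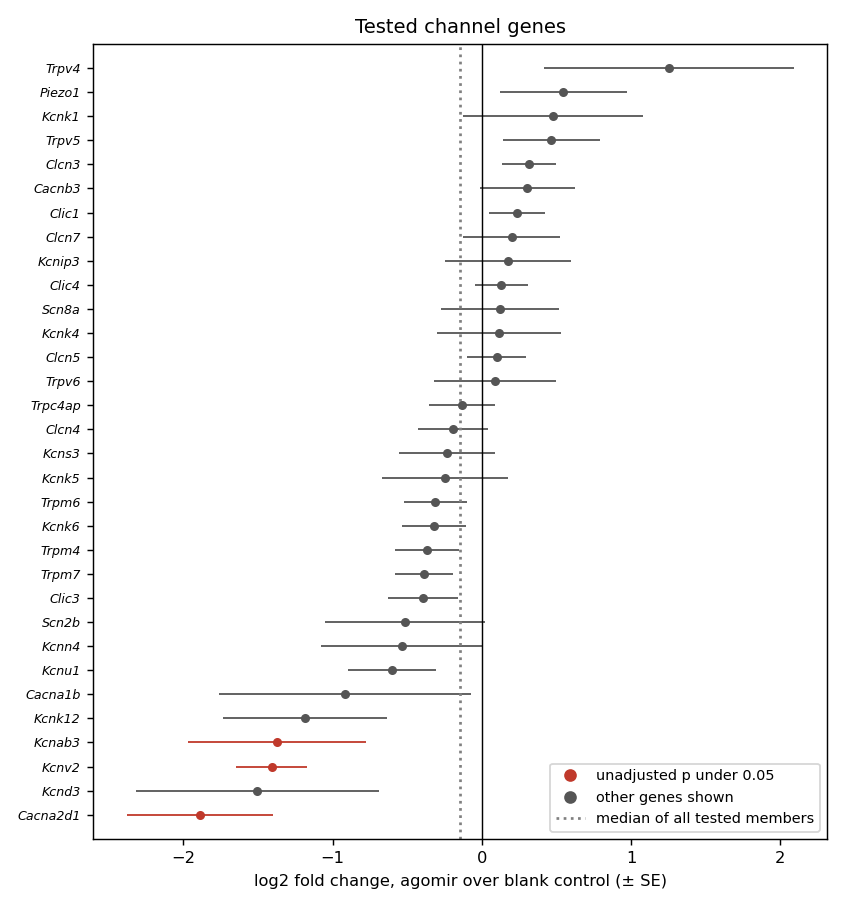
Log2 fold change, agomir over blank control, with SE for the tested channel genes named in the text; red marks an unadjusted p under 0.05. Kcnv2 combines a value of -1.41 with an SE of 0.24, and the dotted line is the median of -0.15 over all 55 tested members.

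Among the most abundant members differences were small. Clic4 was at 0.13 (SE 0.18), Clic3 at -0.39 (SE 0.23), Clic1 at 0.23 (SE 0.19), Trpm4 at -0.37 (SE 0.22) and Clcn3 at 0.32 (SE 0.18). The Trpm4, Trpm6 and Trpm7 means were all lower with the agomir, in this fit and under each alternative scaling, but none of the 3 genes had an unadjusted p under 0.05 in this fit. Trpv4, which opens to swelling and warmth, had 3.31, 0.338, 0.606 and 0.678 CPM in agomir libraries 1 to 4 and 0.543, 0.0464, 0.977 and 0.497 CPM in controls 1 to 4. Agomir 1 alone stood out, and without it the log2 fold change of 1.25 (SE 0.84) was 0.07.

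Sites for the miR-21-5p seed were then looked up in the members. The 7-base match to seed bases 2 to 8, ATAAGCT, was searched on the sense strand of 3' untranslated regions, 1 per gene and the longest one annotated (GENCODE release M21). It was found in 6 of the 55 tested channel genes (10.9%), against 960 of 12224 tested genes with such a region (7.85%). The median region was 1393 bases long in the tested channel genes and 1123.5 bases in all tested genes. A longer region has more places for a match, and the part of length in these shares was not tested. The 3256-base region of Kcnv2 held no match to these letters. The region of Cacna2d1 held 1 match. The sites are shown with their flanks, 5' to 3', match in capitals, for the 6 genes.
Cacna2d1: ccaaggacagaATAAGCTaaaggtgcttg
Kcnd3: ttaaaatacagATAAGCTgttcatttgca
Scn2b: gggttgtactaATAAGCTgtctctttttt
Trpm7: aggccgcagagATAAGCTgttaaatagtg
Kcnk6: caggtgataaaATAAGCTaagcaatataa
Cacnb3: cctccccctgcATAAGCTgccgcccccgt
Of these genes 5 had a lower and 1 (Cacnb3) a higher mean with the agomir, and 1 of them, Cacna2d1, had an unadjusted p under 0.05. Without agomir 3 the Cacnb3 value was -0.0052. Their median log2 fold change was -0.45, against -0.13 for the 49 tested members with no match. Errors were wide, as for Kcnd3 (-1.50, SE 0.81) and Scn2b (-0.51, SE 0.54). The same medians were not taken over all tested genes, and the difference was not tested. A letter match is a description, not a site shown to be used.

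Channel genes outside the symbol rule, and channel regulators, were counted in the same fit. Of 57 other channel genes, such as the volume-regulated Lrrc8 family and the store-operated Orai genes, 39 were tested and 20 were expressed. None passed at an adjusted p of 0.05 in edgeR, and 1 had an unadjusted p under 0.05 (2.56%, against 6.38% of all genes). That gene, Lrrc8d, had 16.2 ± 3.87 CPM with the agomir and 10.2 ± 3.08 CPM in controls (SD, n = 4 each; log2 fold change 0.66, SE 0.26). Groups did not overlap for 2 of the 39, against 3.89% of all tested genes. Lrrc8b had 6.14 ± 0.644 CPM with the agomir and 8.47 ± 1.27 CPM in controls, and Ryr1, a calcium release channel, had 4.56 ± 0.594 CPM with the agomir and 3.05 ± 0.549 CPM in controls (SD, n = 4 each). Of 13 regulators 12 were tested and 0 passed in edgeR, and 1 had an unadjusted p under 0.05 (8.33%). Nedd4l, a ubiquitin ligase that removes sodium channels from the membrane, had 47.1 to 62.6 CPM with the agomir and 31.4 to 46.8 CPM in controls, without overlap (log2 fold change 0.45, SE 0.19, edgeR adjusted p = 0.746). Their median log2 fold changes were 0.12 for the other channels and 0.04 for the regulators.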

How the data were processed

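Poly(A) RNA of 8 blastocyst pools was sequenced, per the labels' protocols. The submitters' processing notes name build GRCm39 and, with no roles, RSEM, DESeq2 1.36.0, StringTie 1.3.1, HISAT2 2.1.0 and fastp 0.18.0. Whether counting used strand, and which annotation, is not given in the sources used here. In the deposited columns of estimated counts 1212 of 176104 values were not whole, and all were rounded. The deposited FPKM values, scaled by the authors to length and depth, served for levels between genes. Columns of other samples numbered 0.

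Genes passing filterByExpr (minimum count 10, total 15) entered the test of edgeR 4.0.16 (R 4.3.3; TMM scaling, robust quasi-likelihood F test, no covariate), with Benjamini-Hochberg adjustment over all genes. CPM use TMM-scaled totals. SE is the fold change divided by the square root of F. Alternatives used DESeq2 1.42.0 and limma 3.58.1. GENCODE and RefSeq tables (GRCm38) gave names, overlaps and sequences, never coordinates. Genes were named by a fixed rule: Kcnv2, members with unadjusted p under 0.05 or groups apart, the 20 highest by FPKM, each family's highest, and 18 chosen by name and held by the table. Kcnma1, Kcnk3, Lrrc8b, Lrrc8d, Ryr1, Nedd4l, Cacna1b, Kcnk4, Kcnd3 and Scn2b were named after their values were seen. Members and lists were chosen with earlier results of these data known. Values of some members are not reported here, though they enter the counts.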

Additional observations from a re-analysis of the deposited data

Results flagged for a closer look

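In groups of 4 libraries, 5 named genes had 1 library far from the other 3. Chance flags about 1 in 20 groups. The number of groups searched is not given here, so whether 5 is more than chance gives cannot be told. Kcnk12 was at 4.11 CPM in agomir 4, against 0.787 to 1.00 CPM in the other agomir libraries. Trpv4 was at 3.31 CPM in agomir 1, against 0.338 to 0.678 CPM in the other agomir libraries. Among controls, Trpc4ap was at 36.3 CPM in control 2, against 23.4 to 24.3 CPM in the others. Clcn4 was at 10.98 CPM in control 3, against 7.76 to 7.99 CPM in the others. Cacna2d1 was at 1.04 CPM in control 4, against 1.35 to 1.40 CPM in the others.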

How the results depend on the processing

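Kcnv2 was lower with the agomir under all 19 alternatives run, from -1.53 (library totals only, where the median of all genes was -0.11) to -0.81 (log2(FPKM + 1), whose pseudocount shrinks low genes). Its adjusted p passed 0.05 only with DESeq2 (log2 fold change -1.39, adjusted p = 0.000369) and otherwise lay between 0.163 and 0.836. Channel genes with an adjusted p under 0.05 numbered 2 with DESeq2, of 84 with an adjusted p, and 0 in the other fits. Those with an unadjusted p under 0.05 numbered 3 as planned and 3 to 10 without single libraries (10 without control 3, 6 without agomir 2, 3 or 4). Without control 3 that was 18.2% of the tested members, against 8.27% of all genes in that fit; without agomir 2, 3 or 4 it was 10.3% to 10.5%, against 6.09% to 6.76%. They numbered 5 with library totals, 5 with limma-voom (4 lower), 6 with upper-quartile scaling, 7 with DESeq2, 11 with no filter, and 6 without both control 2 and agomir 3 (4 lower); the cause was not tested. In these 6 fits the members' share was 4.61% to 10.9%, and that of all genes 5.85% to 8.37%. With the replicate block they numbered 6 (10.9%, against 5.71% of all genes), and Kcnv2 was at -1.41. The labels tie nothing to the replicate numbers, and same-numbered libraries did not deviate together (correlations -0.07, -0.06, -0.14 and 0.12; 1 of 4 correlated best with its own number). Expressed channel genes numbered 25, 23 to 25 without single libraries, 33 at 0.5 FPKM, 12 at 5 FPKM, and 55 by the count filter. Without both control 2 and agomir 3 the expressed channel genes numbered 24. Leaving out this pair was added after seeing the data, here and wherever it is used above.

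The sign of 9 genes turned in 1 to 4 alternatives each, most often for Trpv6 (4), Kcnk5 (3) and Scn8a (3). Leaving out single libraries gave -0.0052 to 0.53 for Cacnb3, -0.053 to 0.21 for Clcn5, -0.040 to 0.43 for Clcn7, -0.024 to 0.40 for Kcnip3, -0.095 to 0.88 for Kcnk1, -0.52 to 0.29 for Kcnk5, -0.15 to 0.38 for Scn8a, -0.23 to 0.050 for Trpc4ap and -0.13 to 0.34 for Trpv6. Trpv6 was at -0.048 with library totals and Clcn7 at -0.039 with log2(FPKM + 0.1). limma-voom gave 0.024 for Kcnk5, -0.12 for Kcnip3 and -0.065 for Scn8a. Without both control 2 and agomir 3, Trpc4ap was at 0.11 and Kcnk5 at 0.18. Under 2 CPM, where most tested members lie, precision was limited by few counts per library.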
